A study of Zea mays with 50 samples.

Results

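ZHD4 and ZHD5 are zinc finger-homeodomain (ZF-HD) proteins of maize, and each was expressed as a GFP fusion in leaf protoplasts, that is, leaf cells freed of their walls. The comparison used 8 of the 50 RNA-seq libraries of the study: 2 of ZHD4, 2 of ZHD5 and the 4 libraries of GFP alone. Libraries were chosen by their labels. Each ZHD library was set against the GFP library of the same protoplast preparation (prep), which gave 4 pairs, and against the libraries of the other regulators of that prep.

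The study expressed 23 putative regulators of reproductive phasiRNAs, or GFP, in protoplasts of the inbred B73. The cells came from etiolated seedlings of 10 to 12 days, more than 10 seedlings per isolation, kept in darkness at 25 °C. ZHD4 was expressed from p35S-GFP-ZHD4 in preps 2 and 4, ZHD5 from p35S-GFP-ZHD5 in preps 1 and 3, and the control was p35S-GFP in all 4 preps. All 3 constructs thus carried GFP under the same viral 35S promoter, and all libraries were made from polyadenylated RNA with a stranded kit. Because each regulator was expressed in its own pair of preps, regulator and prep pair cannot be told apart when ZHD4 is set against ZHD5.

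ZF-HD proteins are plant transcription factors that join a zinc finger-like domain, used to pair with other members of the family, to a homeodomain that binds DNA. PhasiRNAs are small RNAs cut at regular steps from long transcripts of PHAS loci, and in grasses they accumulate in developing anthers.

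The deposited values are RPKM, that is, reads divided by the length of a row and by the size of its library. The 8 libraries held 7603575 to 10401961 reads as recovered from the values, and 48 of the 50 libraries held 6830505 to 11875644, while both EREB69 libraries held 28153191 and 29950322. Of 30213 rows, 28122 reached 1 RPKM in at least 2 libraries and were tested with limma on log2(RPKM + 0.5), with prep as a block. Calls were made where the p adjusted by Benjamini-Hochberg was below 0.05, log2 changes are given ± SE on that scale, and the small added value understates changes of low rows. The p-values rest on the scatter between libraries of a group that is left after prep is taken out. This scatter is pooled over all 24 groups, so it is not that of the ZHD and GFP libraries alone. Since no molecular identifiers were used, a read is not an independent molecule. In bulk RNA, fewer cells of a type and less RNA per cell cannot be told apart.

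The cells carried some leaf marker transcripts and lacked others. C4ppdkZm1 (GRMZM2G306345), the C4 pyruvate phosphate dikinase of mesophyll cells, stood at 82.8 to 219 RPKM over the 8 libraries, and the epidermal homeodomain gene ocl1 (GRMZM2G026643) at 13.8 to 24.3 RPKM. pep1 (GRMZM2G083841), the C4 phosphoenolpyruvate carboxylase that defines mature mesophyll, was near 0, at 0.0699 to 0.721 RPKM. The rbcS row GRMZM2G113033, the small subunit of Rubisco found in bundle sheath cells, ranged from 6.55 RPKM in the GFP library of prep 1 to 38.4 RPKM in that of prep 2. None of the 7 epidermis, 2 mesophyll, 3 bundle sheath, 2 vascular or 1 anther marker rows tested was called by limma in any of the 3 comparisons with GFP, and 1, the epidermal gene ocl3 (GRMZM2G116658), had an unadjusted p below 0.05 over the 4 pairs.

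No row carried a ZHD name in the reference used for aliases, so the expressed genes could not be looked up there. In ZHD5 cells the largest rise was that of GRMZM2G438438, which the reference does not name. It stood at 3563 RPKM (59380 reads) in the ZHD5 library of prep 1 and 3953 RPKM (76580 reads) in that of prep 3. The GFP libraries of those preps held 0.815 and 1.38 RPKM, 12 and 26 reads. In the ZHD4 libraries it stood at 0.943 and 0.976 RPKM, against 0.538 and 0.932 RPKM in their GFP libraries, and the other 21 regulators kept it at or below 1.53 RPKM. It was high in the ZHD5 libraries and low in all other libraries, with no overlap. Whether the row is the expressed ZHD5 gene itself was not settled from the files. The log2 change was 11.22 ± 0.35 in ZHD5 (limma adjusted p = 1.59e-18) and 0.26 ± 0.35 in ZHD4 (adjusted p = 0.846).

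ZHD4 cells had no row of that kind, so the expression of ZHD4 was not seen in these values. The largest fitted rise was that of GRMZM2G572833, at 12.1 RPKM in prep 2 and 8.03 RPKM in prep 4, while the GFP libraries held 0 and 1.2 RPKM. These are 10 and 6 reads against 0 and 1. The other regulators of the same preps ranged from 0 to 20.3 RPKM with a median of 4.2 RPKM, so both ZHD4 values lay inside their range. The fitted change of 3.49 ± 1.36 was not called (limma adjusted p = 0.405).

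**Figure D1:**
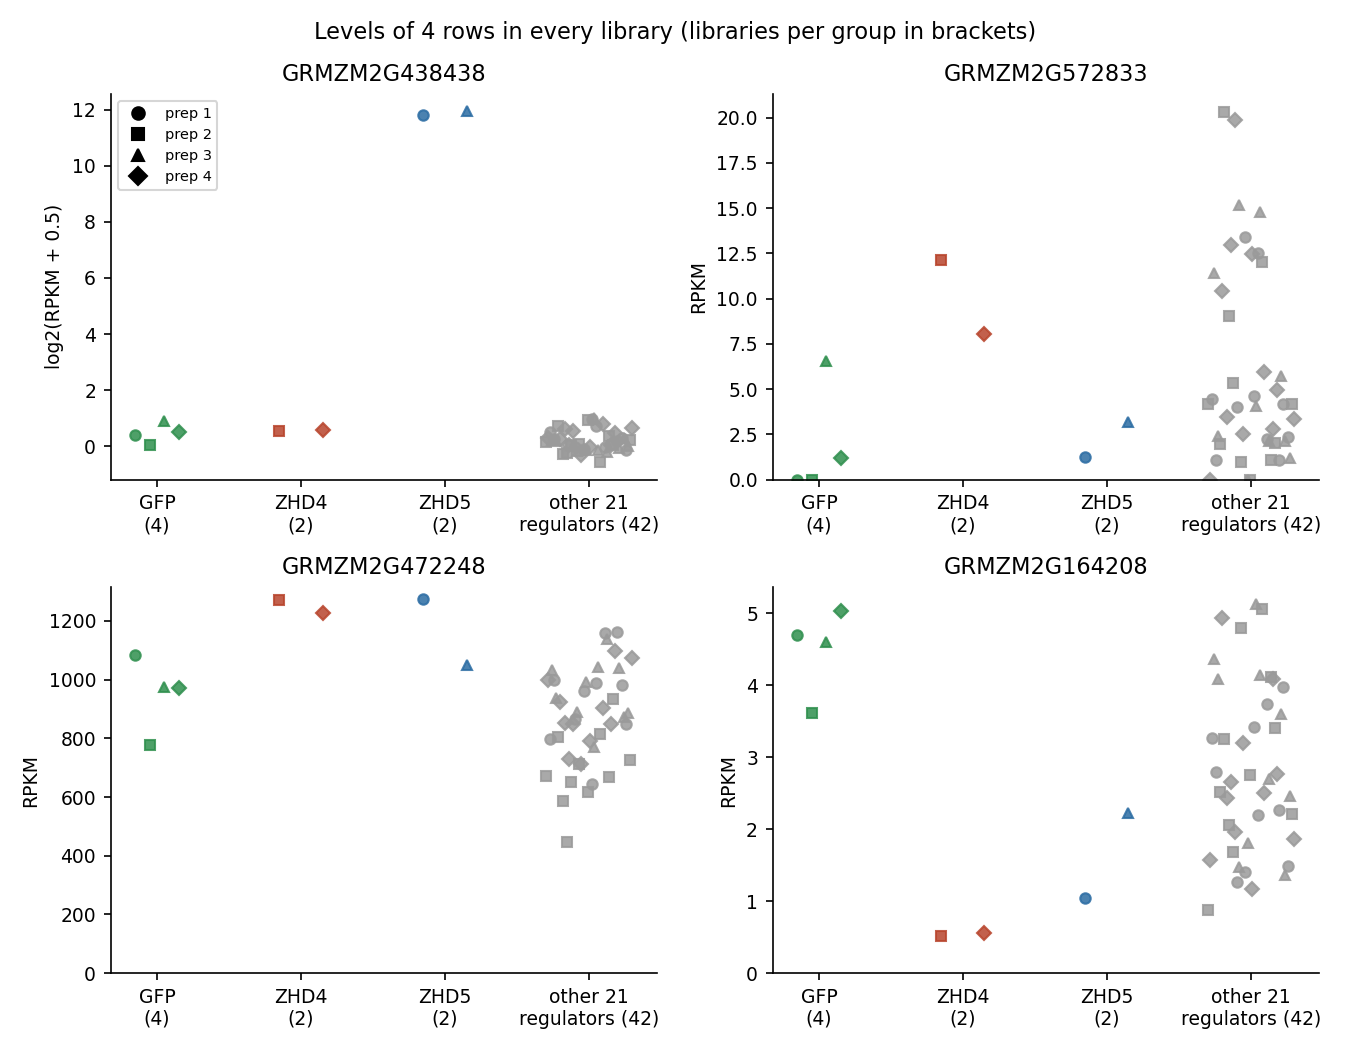
Levels of 4 rows in all 50 libraries, by group (number of libraries in brackets); each point is 1 library and its shape gives the prep, with log2(RPKM + 0.5) on the y axis for GRMZM2G438438 and RPKM for the others. GRMZM2G438438 is high in the 2 ZHD5 libraries only (3563 and 3953 RPKM), while the ZHD4 libraries lie above all other regulators of their preps for GRMZM2G472248 and below them for GRMZM2G164208.

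Few rows separated the ZHD libraries from GFP. Over the 4 pairs 11 rows were called, 0.0391% of the rows tested, 4 higher (0.0142%, GRMZM2G438438 among them) and 7 lower (0.0249%), and 6 of the 11 (0.0213% of the rows) changed by at least 1 on the log2 scale. ZHD4 alone gave 11 called rows (0.0391%), 3 higher (0.0107%) and 8 lower (0.0284%). ZHD5 alone gave 5 (0.0178%), 3 higher (0.0107%) and 2 lower (0.00711%). No row was called in both regulators, and none of the called rows has a name in the reference. The median change over all rows was 0.00 in the pooled comparison, with 90% of the rows between −0.40 and 0.42. Without prep as a block limma called 4 rows over the 4 pairs, 3 in ZHD5 and 0 in ZHD4, where 1813 rows had an unadjusted p below 0.05. With limma-voom on the recovered reads, GRMZM2G438438 was the only row called over the pairs and in ZHD5, and ZHD4 had 0.

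The pooled calls depended on single libraries. The count fell to 3 without the ZHD4 library of prep 2, 1 without that of prep 4, 7 and 2 without the ZHD5 libraries of preps 1 and 3, and 2, 5, 2 and 10 without the GFP libraries of preps 1, 2, 3 and 4. With any 1 library left out, GRMZM2G438438 was the only row whose call held each time.

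In some preps the GFP library was the highest or the lowest in more rows than an even share, so values for the other regulators are given beside many of the results. Against the 10 other regulators of prep 1 and of prep 3, the GFP library was the highest in 3834 and 3610 rows and the lowest in 3396 and 3189 rows, where an even share among these libraries is 2557 rows. Against the 11 others of prep 2 and of prep 4 it was the highest in 2230 and 2772 rows and the lowest in 2292 and 2473 rows, with an even share of 2344. The counts thus exceeded an even share in preps 1, 3 and 4 and not in prep 2. No such count was made for single other regulators. The GFP library of prep 1 was also the shallowest of its prep, at 7603575 reads where the next held 8522855. Those of preps 3 and 4 were not the shallowest, and a part of depth was not tested.

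Of the rows that fell over the 4 pairs, GRMZM2G164208 had the lowest adjusted p. Its GFP libraries held 4.7, 3.62, 4.6 and 5.04 RPKM in preps 1 to 4. ZHD5 stood at 1.04 RPKM in prep 1 and 2.23 RPKM in prep 3, and ZHD4 at 0.51 RPKM in prep 2 and 0.563 RPKM in prep 4. All 4 ZHD libraries lay below all 4 GFP libraries, and the ZHD4 libraries also below all 11 other regulators of their preps, whose range was 0.884 to 5.06 RPKM. The pooled change was −1.77 ± 0.27 (limma adjusted p = 0.00836), and against the other regulators it was −1.10 ± 0.20 (adjusted p = 0.0349; limma-voom on the recovered reads 0.41). In reads the row is thin: 2, 1, 5 and 1 in the ZHD libraries against 8, 7, 10 and 10 in GFP. GRMZM2G120388 gave nearly the same values in every library, with a pooled change of −1.69 ± 0.29 (adjusted p = 0.0218). How reads shared by similar rows were counted is not given in the sources used here, so the pair may not be 2 separate measurements.

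GRMZM2G033453 showed the same order. GFP libraries held 2.98, 5.62, 2.67 and 4.38 RPKM in preps 1 to 4. The ZHD5 libraries held 0.752 and 0.647 RPKM and the ZHD4 libraries 0.37 and 0.816 RPKM. Every ZHD value lay below every GFP value, and both ZHD4 values lay below all 11 other regulators of their preps while GFP lay above all 11. The pooled change was −1.91 ± 0.32 (limma adjusted p = 0.0174), from 1 or 2 reads per ZHD library and 7 to 15 per GFP library. Against the other regulators the difference was −1.02 and was not called (adjusted p = 0.166).

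GRMZM2G570945 was better covered, with 22 to 45 reads in the ZHD libraries and 59 to 120 in GFP. It stood at 26.8, 42.9, 18.7 and 32 RPKM in the GFP libraries of preps 1 to 4. ZHD5 cells held 16.1 and 10.5 RPKM and ZHD4 cells 12 and 8.55 RPKM. The groups did not overlap, and the change was −1.82 ± 0.31 in ZHD4 (limma adjusted p = 0.0306) and −0.76 ± 0.31 in ZHD5, where it was not called (adjusted p = 0.899). The other regulators spanned 8.85 to 45 RPKM in preps 2 and 4 with a median of 17.9 RPKM, and the pooled difference from them was −0.49 (adjusted p = 0.484).

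GRMZM5G847915 had the largest fall among the called rows of the 4 pairs, and the widest error. In GFP it stood at 11.9, 27.1, 15.2 and 23.7 RPKM in preps 1 to 4. ZHD5 held 9.42 RPKM in prep 1 and 0.477 RPKM, 1 read, in prep 3, and ZHD4 held 3.27 and 6.61 RPKM. The ZHD5 library of prep 1 was close to its GFP library and the other 3 were far below theirs. The pooled change was −2.24 ± 0.43 (limma adjusted p = 0.044) and ran from −3.09 to −1.40 as single libraries were left out. The other rows called lower over the 4 pairs were GRMZM5G853472, at −0.75 ± 0.13 (adjusted p = 0.0218), and GRMZM2G001606, at −0.71 ± 0.13 (adjusted p = 0.0415).

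GRMZM2G014240 rose over the 4 pairs and was called in neither regulator alone. GFP libraries held 20.2, 19.8, 19.8 and 16.7 RPKM in preps 1 to 4, ZHD5 held 25.6 and 35.7 RPKM, and ZHD4 held 38.7 and 28.7 RPKM. The 4 GFP values were close together and all ZHD values lay above them. The change was 0.72 ± 0.14 (limma adjusted p = 0.0415), while the difference from the other regulators was 0.34 (adjusted p = 0.357), with their medians at 22.6 and 27.4 RPKM in the 2 sets of preps.

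GRMZM2G049632 rose in ZHD5 cells and over the 4 pairs. It stood at 4.04 and 6.11 RPKM (29 and 51 reads) in ZHD5, against 1.73 and 1.6 RPKM (11 and 13 reads) in GFP of the same preps, and at 3.56 and 4.23 RPKM in ZHD4 against 2.5 and 2.97 RPKM. In both preps ZHD5 lay above all 10 other regulators and GFP below all 10. The change was 1.34 ± 0.22 in ZHD5 (limma adjusted p = 0.0295) and 0.44 ± 0.22 in ZHD4 (adjusted p = 0.529), and the pooled difference from the other regulators was 0.34 (adjusted p = 0.535).

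GRMZM2G175396 rose in ZHD4 cells against both references. It stood at 77.05 RPKM in prep 2 and 60.3 RPKM in prep 4, against 42.5 and 42.2 RPKM in GFP. ZHD5 held 45.3 and 49.2 RPKM against 38.6 and 42.5 RPKM. The ZHD4 library of prep 2 was the highest of its prep and that of prep 4 lay above 10 of 11 other regulators, whose range over both preps was 35.7 to 63.1 RPKM. The change was 0.68 ± 0.12 against GFP (limma adjusted p = 0.0306) and 0.53 ± 0.09 against the other regulators (adjusted p = 0.0192). Neither call held in every setting. Without prep as a block, and with limma-voom, 0 rows were called in ZHD4 against GFP. With MYB131, EREB69 and NAC29 left out of the other regulators, 0 rows were called higher in ZHD4.

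Other rows were called higher in ZHD4 and not in ZHD5, although the difference between the regulators was called for neither. GRMZM2G141019 held 5.6 and 6.88 RPKM in ZHD4 and 1.78 and 2.37 RPKM in GFP of the same preps. The ZHD4 library was the highest and the GFP library the lowest of each prep, with a change of 1.39 ± 0.24 (limma adjusted p = 0.0306) and a difference from the other regulators of 0.72 ± 0.17 (adjusted p = 0.208). GRMZM2G301355 held 18.4 and 16.7 RPKM in ZHD4 and 5.84 and 9.8 RPKM in GFP, a change of 1.16 ± 0.21 (adjusted p = 0.0398). For both rows the ZHD5 change was small on average, at −0.09 ± 0.24 and 0.17 ± 0.21. For GRMZM2G141019 the preps differed: in prep 1 GFP lay above all 10 other regulators and ZHD5 above 5. In prep 3 GFP lay above 2 of 10 and ZHD5 above 3.

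Of the rows that fell in ZHD4 cells and not over the 4 pairs, GRMZM2G588732 went from 3.64 and 4.17 RPKM in GFP to 1.05 and 0.932 RPKM in ZHD4, a change of −1.56 ± 0.29 (limma adjusted p = 0.0398). Both ZHD4 values lay below all 11 other regulators of their preps. GRMZM2G053042 went from 12.3 and 12.2 RPKM to 6.83 and 5.96 RPKM, a change of −0.89 ± 0.17 (adjusted p = 0.0398), and GFP lay above and ZHD4 below all 11 other regulators in both preps. GRMZM2G570674 changed by −1.10 ± 0.21 (adjusted p = 0.0398). None of these rows was called against the other regulators.

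ZHD5 gave a further rise and 2 falls. GRMZM2G141978 stood at 2.77 and 3.88 RPKM in ZHD5 and 1.18 and 0.614 RPKM in GFP, a change of 1.47 ± 0.26 (limma adjusted p = 0.0359), and GFP lay below all 10 other regulators in both preps. GRMZM2G001606 went from 2.34 and 2.23 RPKM to 0.895 and 0.722 RPKM (−1.09 ± 0.19, adjusted p = 0.0359). GRMZM2G117971 went from 1.5 and 3.38 RPKM (9 and 26 reads) to 0 and 0.379 RPKM (0 and 3 reads). Its fitted change was −2.07 ± 0.37 (adjusted p = 0.0384). In the last 2 rows the ZHD5 library was the lowest of both preps, and neither was called against the other regulators.

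**Figure D2:**
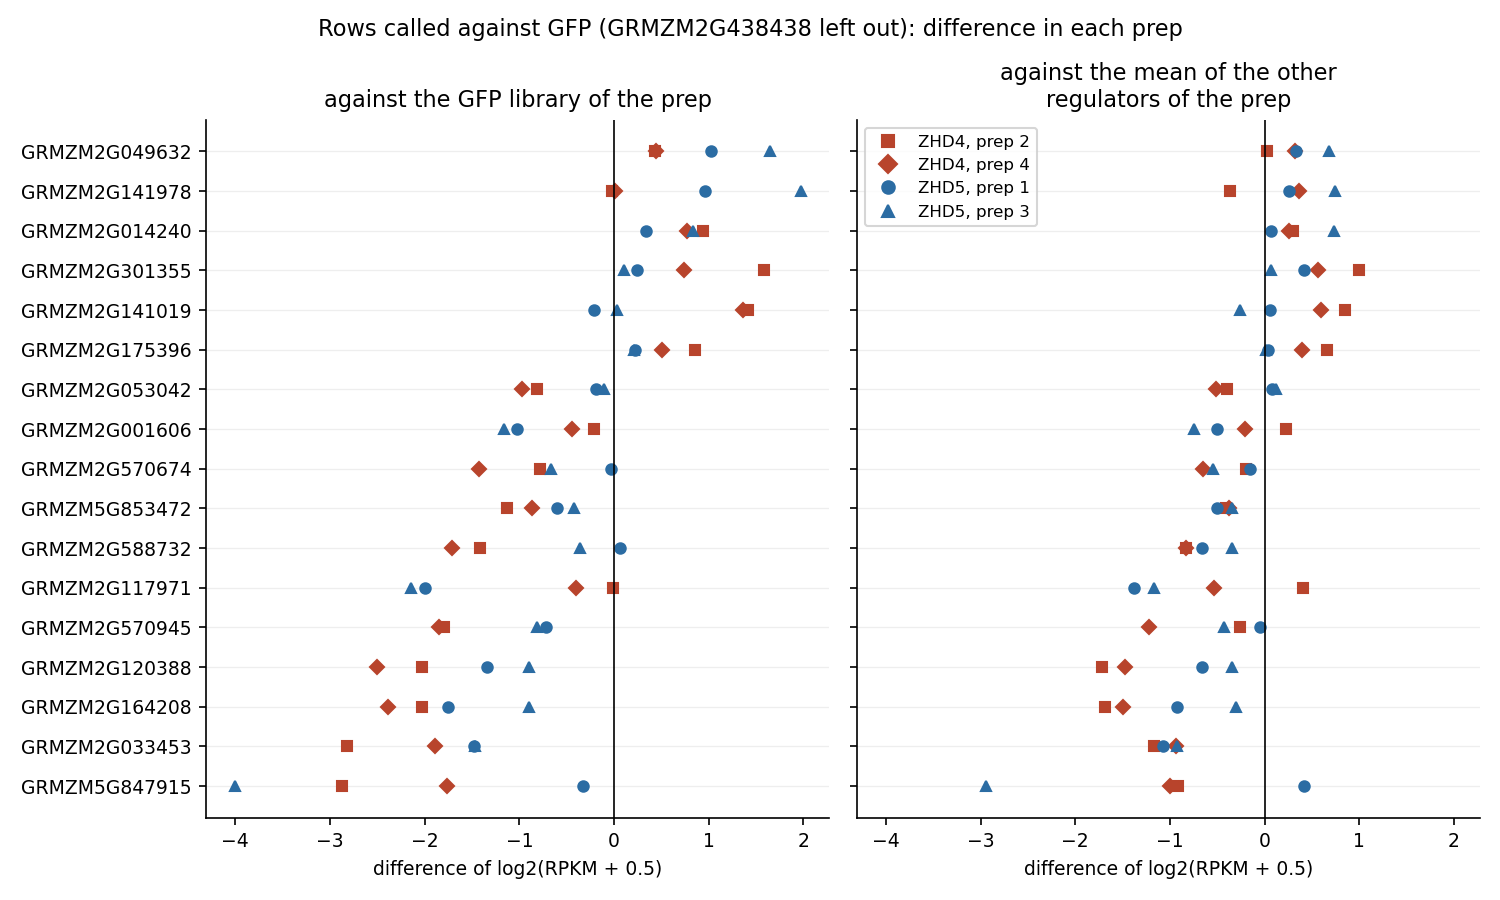
Log2 differences in each of the 4 preps for the rows called against GFP (GRMZM2G438438 left out for scale); the x axis is the difference of log2(RPKM + 0.5) from the GFP library of the prep (left) or from the mean of the other regulators of the prep (right), and each point is 1 ZHD library. Falls of GRMZM2G033453 reach −1.91 on average against GFP and −1.02 against the other regulators, and GRMZM2G175396 lies to the right in ZHD4 on both sides.

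Against the other regulators of the same preps, which all expressed GFP fusions too, 7 rows were called over the 4 ZHD libraries (0.0249%), 11 in ZHD4 (0.0391%) and 9 in ZHD5 (0.032%). GRMZM2G438438 was among them, at 11.69 ± 0.26 in ZHD5 (limma adjusted p = 2.16e-22). GRMZM2G472248 was higher, at 1270 and 1226 RPKM in ZHD4 and 1274 and 1051 RPKM in ZHD5. GFP held 1085, 778, 974 and 970 RPKM in preps 1 to 4, and the other regulators 644 to 1163 RPKM in preps 1 and 3 and 447 to 1099 RPKM in preps 2 and 4. The ZHD libraries were the highest of preps 1, 2 and 4, and in prep 3 lay above 9 of 10 other regulators. The difference was 0.49 ± 0.08 (limma adjusted p = 0.0149, and 0.00293 with limma-voom on the recovered reads). Against GFP it was 0.35 ± 0.11 and not called (adjusted p = 0.266). Without prep as a block the difference from the other regulators was not called (limma adjusted p = 0.402). With MYB131, EREB69 and NAC29 left out of the other regulators, limma called only 1 row higher over the 4 libraries. The full set had given 2, GRMZM2G438438 and this row. The call was lost without the ZHD4 library of prep 2 or the ZHD5 library of prep 1.

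In ZHD4, GRMZM2G111922 held 27.6 and 25.4 RPKM, above all 11 other regulators (12.6 to 22.5 RPKM), but its GFP libraries at 20.2 and 23.3 RPKM lay above all 11 as well. The difference from the other regulators was 0.65 ± 0.12 (limma adjusted p = 0.0366). THX31 (GRMZM2G427087), a trihelix transcription factor gene, held 25.6 and 25.0 RPKM in ZHD4 against 17 and 21.2 RPKM in GFP and 13.4 to 22.9 RPKM in the other regulators, a difference of 0.45 ± 0.09 from the latter (adjusted p = 0.0465). It was the only row with a name in the reference that was called higher in a ZHD comparison with GFP or with the other regulators. With MYB131, EREB69 and NAC29 left out of the other regulators, limma called 0 rows higher in ZHD4. The calls of THX31 and GRMZM2G111922 were thus lost in that setting. GRMZM2G075641 was lower than in the other regulators, at 3.84 and 4.11 RPKM against 4.14 to 15.3 RPKM (−0.80 ± 0.15, adjusted p = 0.0413). GRMZM2G164208 and GRMZM2G120388 were called lower here too, at −1.59 and −1.60 in ZHD4. With limma-voom no row was called lower in ZHD4 or over the 4 libraries, and the adjusted p of GRMZM2G111922, THX31 and GRMZM2G075641 was 0.0715, 0.123 and 0.191. The remaining rows called lower than the other regulators were rows high in 1 other group, such as fl1 (GRMZM2G098813), a LEAFY-type gene of the ZFL1 libraries. All 8 rows called lower in ZHD5 (0.0284%) were of that kind, so they reflect the level in that group.

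No row was the highest of its prep in all 4 ZHD libraries, and 3 rows (0.0107%) were the lowest in all 4. These were GRMZM2G097898, GRMZM2G120019 and GRMZM2G352159. GRMZM2G120019 held 1.4, 0.609, 1.13 and 1.34 RPKM in the ZHD libraries of preps 1 to 4 and 1.58, 1.85, 2.06 and 1.88 RPKM in GFP, a pooled change of −0.56 (limma adjusted p = 0.277). None of these 3 rows was called against GFP or against the other regulators. ZHD4 was the highest library of both its preps in 152 rows (0.541%) and the lowest in 136 (0.484%), and ZHD5 in 104 (0.37%) and 139 (0.494%). A random order of the 13 libraries in preps 2 and 4 and the 12 in preps 1 and 3 would also give such rows. The counts were not tested against it.

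The ZHD4 and ZHD5 changes against GFP came from different GFP libraries and were set against each other row by row. Both were higher in 8077 rows, both lower in 8278, and the signs differed in 6091 rows with ZHD4 higher and 5637 with ZHD5 higher. Pearson's r over the 28122 rows was 0.161, which ranked 28 of 132 pairs made of 1 regulator of preps 1 and 3 and 1 of preps 2 and 4 (range −0.167 to 0.382, median 0.0587). With the other regulators as reference r was 0.145, rank 17 of 132. All such pairs draw on the same GFP libraries of each set of preps, and within a regulator the changes of its 2 preps correlated at 0.0491 in ZHD4 and 0.174 in ZHD5. A single row differed between the regulators by the test of the difference (0.00356%), GRMZM2G438438, at −10.96 ± 0.49 for ZHD4 minus ZHD5 (limma adjusted p = 2.17e-14), and 1298 rows (4.62%) had an unadjusted p below 0.05.

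**Figure D3:**
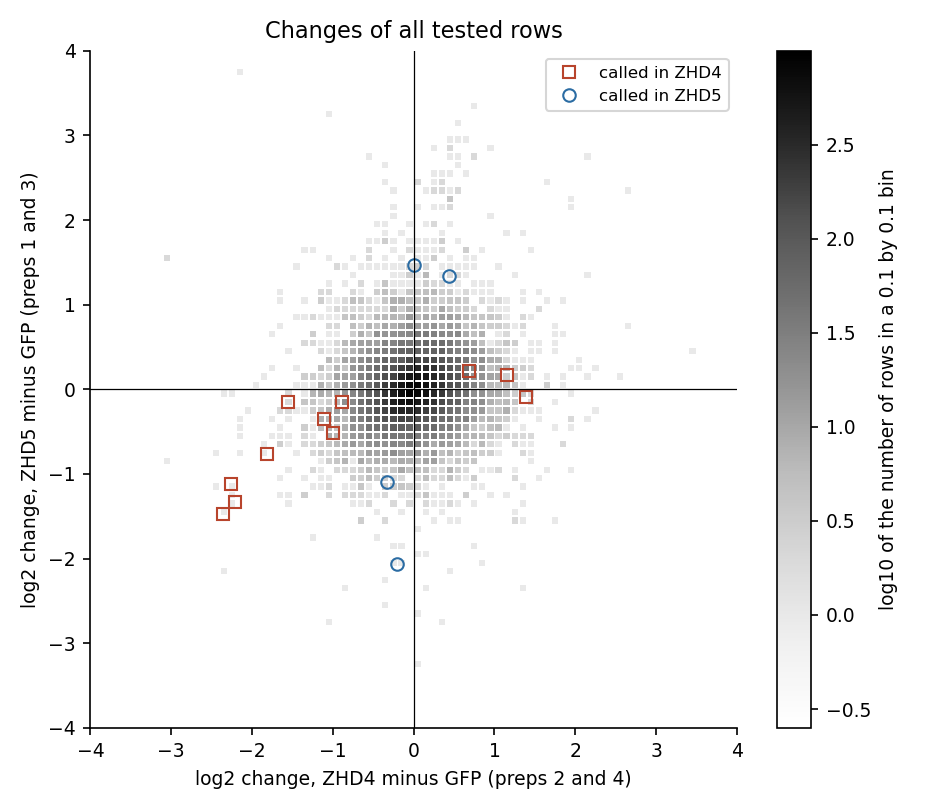
Log2 change of ZHD4 against GFP (x axis, preps 2 and 4) and of ZHD5 against GFP (y axis, preps 1 and 3) for 28118 of 28122 tested rows; grey squares give the log10 number of rows in bins of 0.1 by 0.1, red squares mark rows called in ZHD4 and blue circles rows called in ZHD5. The cloud is centred on 0 in both directions with r of 0.161, no row carries both marks, and GRMZM2G438438 lies off the plot at 11.22.

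Named genes that passed no test are given as values. Over the 4 pairs, xet1 (GRMZM2G026980), a xyloglucan endotransglycosylase that remodels the wall, stood at 1336, 1535, 1322 and 1496 RPKM in the ZHD libraries of preps 1 to 4 and at 1084, 1042, 1126 and 1063 RPKM in GFP. The groups did not overlap, and ZHD4 lay above all 11 other regulators in both preps. The difference was 0.40 ± 0.10 from GFP (limma adjusted p = 0.185) and 0.34 ± 0.07 from the other regulators (adjusted p = 0.138). PAL1 (GRMZM2G074604), a phenylalanine ammonia-lyase at the entry of phenylpropanoid synthesis, held 139, 177, 133 and 151 RPKM against 97.4, 122, 89.3 and 102 RPKM, a difference of 0.54 ± 0.14 (adjusted p = 0.195). mir2 (GRMZM2G150256), a cysteine protease of insect resistance, held 32.7, 48.9, 46.3 and 46.8 RPKM against 24.4, 30.9, 28.1 and 24.9 RPKM (0.67 ± 0.17, adjusted p = 0.185), and GFP lay below all other regulators in preps 1, 3 and 4.

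Among the named genes with lower values, RPL10 (GRMZM2G088005), a protein of the large ribosomal subunit, stood at 19, 15.8, 16.8 and 18.8 RPKM in the ZHD libraries of preps 1 to 4 and at 24, 23.8, 26.3 and 34.3 RPKM in GFP. The difference from GFP was −0.60 ± 0.17 (limma adjusted p = 0.202) and that from the other regulators 0.05, and GFP lay above every other regulator in all 4 preps. H4C13 (GRMZM2G084195), a histone H4 gene, differed by −0.63 ± 0.19 from GFP (adjusted p = 0.218) and by 0.06 from the other regulators, again with GFP above every other regulator. HMG11 (GRMZM2G156785) stood at −0.36 ± 0.09 (adjusted p = 0.152). In ZHD4 alone, Kiwellin-1 (GRMZM2G073114), a secreted defence protein, held 2.93 and 2.94 RPKM against 1.22 and 0.92 RPKM in GFP. In ZHD5 alone, WRKY1 (GRMZM2G398506) held 8.97 and 8.61 RPKM against 6.85 and 4.5 RPKM, YAB5 (GRMZM2G116646), a YABBY-type factor gene, 6.86 and 9.61 RPKM against 4.66 and 6.58 RPKM, and the auxin response factor gene ARF2 (GRMZM2G153233) 2.35 and 3.07 RPKM against 1.51 and 1.79 RPKM. For WRKY1, YAB5 and ARF2 the GFP library lay below all 10 other regulators in preps 1 and 3. ZHD5 lay above only 1 and 3 of the 10 for WRKY1, 1 and 7 for YAB5, and 3 and 6 for ARF2.

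The gene lists were matched by alias, and of their 338 rows tested limma called 0 over the 4 pairs, while 34 were higher and 14 lower at an unadjusted p below 0.05. Over all rows 5.4% were higher and 5.87% lower at that level. Beside the lists stand further values for all rows: 9.07% were higher and 10.7% lower than GFP in every prep, and the median change was 0.00. Of 12 wall loosening rows 6 were tested, 3 were higher in every prep and 0 lower, and the median was 0.37. The cellulase row Cel12Chr1 (GRMZM2G178025) stood at 0.65 ± 0.19 (limma adjusted p = 0.212) in that list. Of 9 gibberellin and brassinosteroid rows 4 were higher in every prep, with a median of 0.26. D8 (GRMZM2G144744), a DELLA repressor of gibberellin responses, was one of them, at 0.26 ± 0.12, and d9 (GRMZM2G024973), another DELLA gene, stood at 0.30 ± 0.14 and was lower than GFP in prep 1. The list holds CYP734A7 as both GRMZM5G852663 and GRMZM2G047684, each at 0.63. Their values were nearly the same, so they may not be separate measurements. Against the other regulators the medians of these lists were 0.02 and −0.04.

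Defence and jasmonate genes had more rows above GFP than below it. Of 18 pathogenesis-related and defence rows 8 were higher in every prep and 3 lower (median 0.17), among them geb1 (GRMZM2G065585), a glucan endo-beta-glucosidase, at 0.54 ± 0.17 (limma adjusted p = 0.238). Of 41 jasmonate rows 13 were higher and 4 lower (median 0.08). TIFY28 (GRMZM2G036351), of the family that holds the JAZ repressors, stood at 81, 204, 106 and 163 RPKM in the ZHD libraries of preps 1 to 4 and at 50.5, 171.5, 54.2 and 61.9 RPKM in GFP, a difference of 0.82 ± 0.34 (adjusted p = 0.376). aos2 (GRMZM2G002178), an allene oxide synthase of jasmonate synthesis, stood at 0.45 ± 0.19. Both medians were 0.06 or less against the other regulators.

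Of 14 cellulose and secondary wall rows 4 were higher and 2 lower in every prep (median 0.19). MYB103 (GRMZM2G111045), known in Arabidopsis as a regulator of the secondary wall, held 0.713, 0.828, 1.17 and 1.97 RPKM in the ZHD libraries of preps 1 to 4 and 0.147, 0.387, 0.574 and 1.01 RPKM in GFP, a difference of 0.71 ± 0.17 (limma adjusted p = 0.147). It was higher in each pair, and the levels of the groups overlapped. The difference from the other regulators was 0.11. Phenylpropanoid rows were 4 higher and 1 lower of 13 (median 0.06), abscisic acid rows 6 and 3 of 37 (0.05), ethylene rows 4 and 2 of 25 (0.05), auxin rows 2 and 3 of 27 (−0.05), C4 and photosynthesis rows 1 and 2 of 20 (0.05), and homeobox rows 3 and 0 of 25 (0.05). AUX36 (GRMZM2G359924), in the auxin list, stood at −0.57 ± 0.15 (adjusted p = 0.195), and gt1 (GRMZM2G005624), a homeodomain-leucine zipper gene, at 0.73 ± 0.36 (adjusted p = 0.444).

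Of 14 heat shock rows 10 were lower than GFP in every prep and 0 higher, with a median of −0.24, and 1 had an unadjusted p below 0.05. HSP90-1 (GRMZM2G024668), a cytosolic chaperone, held 300.3, 232, 251 and 270 RPKM in the ZHD libraries of preps 1 to 4 and 311.5, 301, 273 and 361.5 RPKM in GFP (−0.24 ± 0.11, limma adjusted p = 0.419). Of 37 ribosomal protein rows 17 were lower in every prep and 0 higher, with a median of −0.18, and 5 had an unadjusted p below 0.05, all lower. Against the other regulators the medians were 0.05 in both lists, and their sign differed between preps. For heat shock they were 0.51 and 0.31 in preps 1 and 2 and −0.24 and −0.22 in preps 3 and 4, with ZHD5 in preps 1 and 3 and ZHD4 in preps 2 and 4. Of 26 histone and cell cycle rows 5 were lower and 0 higher than GFP (median −0.07).

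**Figure D4:**
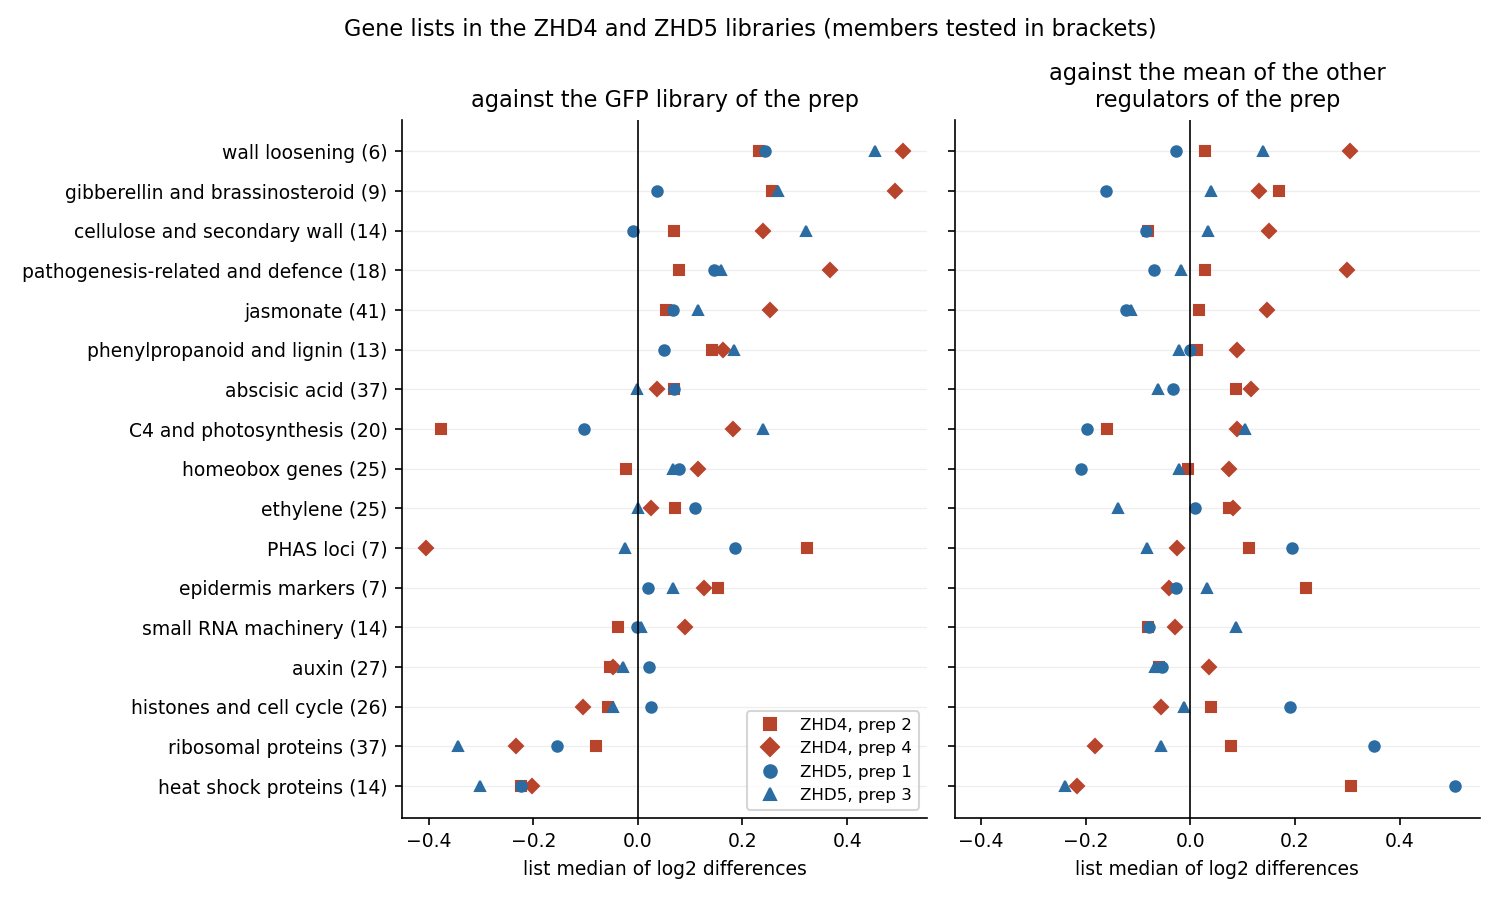
Median log2 difference of each gene list (members tested in brackets) in each ZHD library, from the GFP library of the prep (left) and from the mean of the other regulators of the prep (right); each point is 1 library. Heat shock medians lie between −0.30 and −0.20 against GFP and between −0.24 and 0.51 against the other regulators.

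The transcripts closest to the question of the study, those of PHAS loci, showed no called change. The table holds 9 PHAS rows, 3 sources of 21-nucleotide and 6 of 24-nucleotide phasiRNAs by their names, and 7 were tested, 0 of them with an unadjusted p below 0.05. None was higher or lower than GFP in all 4 preps, and the median difference was 0.04. 24PHAS_NO166 was by far the most abundant, at 249.5, 258, 273 and 204 RPKM in the ZHD libraries of preps 1 to 4 and 219, 276, 277 and 270 RPKM in GFP. The ranges overlapped, and the difference was −0.09 ± 0.10 (limma adjusted p = 0.785).

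21PHAS_NO232 had the lowest unadjusted p of the PHAS rows, 0.103. It stood at 4.86, 5.9, 7.14 and 6.2 RPKM in the ZHD libraries of preps 1 to 4 (17, 21, 29 and 20 reads) and at 3.56, 2, 4.06 and 8.61 RPKM in GFP (11, 7, 16 and 31 reads). It was higher than GFP in preps 1, 2 and 3 and lower in prep 4, a difference of 0.52 ± 0.31 (limma adjusted p = 0.54). 24PHAS_NO160 stood at 4.7, 3.77, 4.36 and 4.02 RPKM against 5.18, 4.81, 3.29 and 4.08 RPKM (−0.03 ± 0.19). 24PHAS_NO8 stood at 3.39, 2.38, 2.5 and 2.1 RPKM against 1.37, 1.45, 4.29 and 4 RPKM (0.04 ± 0.36), higher than GFP in preps 1 and 2 and lower in preps 3 and 4. 21PHAS_NO556, 21PHAS_NO583 and 24PHAS_NO42 differed by 0.18 ± 0.22, −0.38 ± 0.42 and 0.06 ± 0.32, and 24PHAS_NO35 and 24PHAS_NO44 stayed below the level tested. For rows this low the errors leave differences of this size undetectable at the depth at hand.

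**Figure D5:**
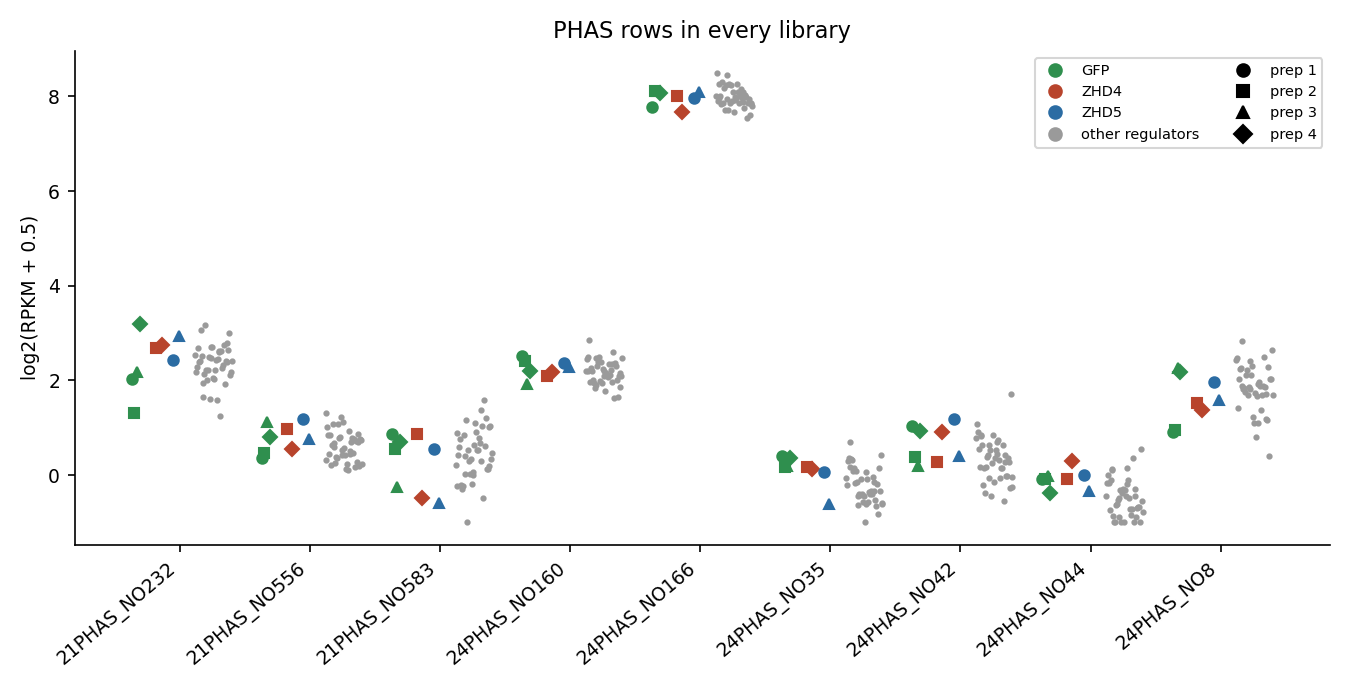
Levels of the 9 PHAS rows, log2(RPKM + 0.5) on the y axis, in the GFP (green), ZHD4 (red) and ZHD5 (blue) libraries, with the shape giving the prep, and in the other regulators (grey); each point is 1 library. The ZHD libraries lie within the range of GFP and the other regulators in nearly every row, and 24PHAS_NO166 stands at 204 to 273 RPKM in them.

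The list of small RNA machinery genes gave no call either. Beside dicer genes and others of small RNA synthesis it holds argonaute1, DNA methyltransferase genes (DMT105, dmt106 and dmt101) and HST. The counts are those of the whole list. Of 14 rows tested, 0 had an unadjusted p below 0.05, 0 were higher and 0 lower than GFP in every prep, and the median was 0.01. dcl4 (GRMZM2G050882), the dicer that cuts 21-nucleotide phasiRNAs, held 7.13, 6.72, 9.52 and 7.58 RPKM in the ZHD libraries of preps 1 to 4 and 7.91, 6.24, 7.61 and 4.66 RPKM in GFP, a difference of 0.23 ± 0.18 (limma adjusted p = 0.67). The rows GRMZM2G024466 and GRMZM2G160473 also carry the alias dcl4, and their values are not printed here. dcl3a/rmr5 (GRMZM5G814985) stood at 0.09 ± 0.10, and argonaute1 (GRMZM2G162525), an Argonaute that binds small RNAs, at −0.15 ± 0.10. dcl1 (GRMZM2G040762), the dicer of microRNA precursors, lay between 21 and 27.8 RPKM over the 8 libraries, and rdr6 (GRMZM2G145201), which makes PHAS transcripts double-stranded, between 2.64 and 4.99 RPKM. lbl1 (GRMZM2G020187), its partner of the SGS3 type, was near 0 at 0.1 to 0.574 RPKM and was not tested.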

How the data were processed

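Polyadenylated RNA of 50 protoplast libraries was sequenced, and the authors deposited 1 table of RPKM values. Per the submitters' processing notes, HISAT2 2.1.0, featureCounts of Subread 1.6.3, edgeR 3.20.9 and the build B73 RefGen_v3 were used; counting of strand and of similar rows is not given in the sources used here. Groups and preps came from the labels. Rows that reached 1 RPKM in 2 or more libraries were fitted in limma 3.58.1 (R 4.3.3) on log2(RPKM + 0.5), with all 50 libraries, 24 groups, prep as a block (23 residual degrees of freedom), a variance trend and Benjamini-Hochberg adjustment within each comparison. The labels name the prep of each library; the deviations of ZHD and GFP libraries between preps correlated at 0.105 (ZHD4) and 0.258 (ZHD5). Whole reads, within 0.05, were recovered for 30197 rows and used in limma-voom. The scripts were tested on simulated data. A RefSeq table of another build (NAM-5.0) matched 14595 row IDs and named 2008, so no positions or sequences are given.

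Named genes were rows with a ZHD name, the largest rise per regulator, up to 10 named rows a direction and comparison with a mean of at least 2 RPKM and 1 sign in every pair, up to 5 called rows without a name a direction, and up to 4 rows a list, of which only some are printed. GRMZM5G853472 over the 4 pairs, GRMZM2G570674, GRMZM2G053042, rows lowest in 4 preps, and rows called only against the other regulators were chosen after their values were seen. Members and lists were chosen with earlier results of these data known. Alternatives were no block, pseudocounts of 0.1 and 1, no filter, median-ratio rescaling, limma-voom, fewer libraries and leaving out each library.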

Additional observations from a re-analysis of the deposited data

Results flagged for a closer look

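The change of GRMZM2G438438 differed between the regulators by the test of the difference, at −10.96 for ZHD4 minus ZHD5 on the log2 scale (limma adjusted p = 2.17e-14).

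A gap test (Dixon's) over the 4 GFP libraries and over the 4 paired differences of each of 67 rows, 134 tests, picked out 7 single libraries, and chance picks out about 1 in 20. The GFP library of prep 2 was the highest for TIFY28 (GRMZM2G036351) at 171.5 RPKM, for the rbcS row GRMZM2G113033 at 38.4 RPKM and for dcl3a/rmr5 (GRMZM5G814985) at 8.68 RPKM. The GFP library of prep 1 was the lowest for 24PHAS_NO166 at 219 RPKM and for GRMZM2G175396 at 38.6 RPKM, and that of prep 4 the lowest for GRMZM2G014240 at 16.7 RPKM. The ZHD4 library of prep 2 stood apart for YAB5 (GRMZM2G116646), at −0.43 from its GFP library on the log2 scale.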

How the results depend on the processing

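Of the 11 rows called over the 4 pairs with GFP, 6 changed by at least 1 on the log2 scale, 4 were called without the replicate block, 1 by limma-voom on the recovered reads and 1 with only the ZHD4, ZHD5 and GFP libraries. In ZHD4 against GFP these last 3 settings each called 0 rows (1813, 2426 and 2658 at an unadjusted p below 0.05), and in ZHD5 they called 3, 1 and 1. Leaving out 1 library gave 1 to 10 rows over the pairs, 0 to 8 in ZHD4 and 1 to 5 in ZHD5. Against the other regulators the pooled 7 rows became 4 at a change of at least 1, with a pseudocount of 0.1 and with limma-voom (4 higher and 0 lower, against 2 and 5), and 5 to 8 with 1 library left out. The ZHD4 count of 11 became 5, 7 and 2 under those settings, 2 without the block, 4 without MYB131, EREB69 and NAC29, and 1 to 10 with 1 library left out. The ZHD5 count of 9 became 5, 5 and 4, 4 without the block and 4 to 7. The difference between the regulators was called in 1 row, or 1 to 3. Without MYB131, EREB69 and NAC29 among the other regulators, limma called 1 row higher and 4 lower over the 4 ZHD libraries. In ZHD4 that setting called 0 higher and 4 lower, against 4 and 7 with all of them. None of 54 called values changed sign. Of 131 not called, 12 did with the same reference and 25 did with the other regulators as reference. Without the block GRMZM2G438438, GRMZM2G033453, GRMZM2G120388 and GRMZM2G164208 kept their call over the pairs. The cause of these moves was not tested. Rows of a few reads per library are limited by depth.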
